A study of Homo sapiens with 24 samples.

Results

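The 34 genes described here encode the HSP70, HSP110, HSP90, HSP40 and small heat-shock proteins of the cytosol, the BAG and HSP90 co-chaperones that work with them, the heat-shock factors HSF1 and HSF2, and the 8 subunits of the CCT chaperonin. They were chosen by name from these families, and all 34 were matched by symbol among the 78724 gene IDs of the series. Expression was measured by RNA sequencing in 2 human biliary tract cancer cell lines, OCUG-1 and HuCCT1, with 24 libraries in all. OCUG-1 derives from gallbladder cancer and grew in DMEM, and HuCCT1 derives from intrahepatic cholangiocarcinoma and grew in RPMI-1640. In each line the 4 arms were vehicle (DMSO, up to 0.1%), sorafenib at 1.25 µM, sorafenib at 10 µM, and sorafenib at 1.25 µM plus IACS-010759 at 1 µM (the combination), all for 72 h and with 3 biological replicates per arm. Sorafenib is an inhibitor of RAF and several receptor tyrosine kinases, and IACS-010759 is an inhibitor of mitochondrial complex I. IACS-010759 was not given on its own in any arm, and what it did can be read only in cells that also received the low dose of sorafenib. Each line is a single case, and line and medium cannot be told apart.

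Chaperones bind unfolded or partly folded proteins. HSP70 proteins hold short stretches of a client with the help of HSP40 (DNAJ) proteins, which load clients and stimulate the HSP70 ATPase, and of exchange factors such as BAG and HSP110 proteins, which release nucleotide. Clients such as kinases and steroid receptors pass on to HSP90, small heat-shock proteins hold aggregation-prone proteins, and the CCT ring folds tubulin and actin. When unfolded protein accumulates in the cytosol, HSF1 is released from chaperones, forms a trimer and binds heat-shock elements, which are arrays of inverted nGAAn units in the promoters of many of these genes.

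Promoter stretches of 9 members that rose in OCUG-1 are shown first as examples, chosen with their values known: some with the longer form of these elements, some with the shorter form, and some with neither, so that sequence can be read beside response. RefSeq promoter windows (GRCh38.p14, 250 bases before to 50 bases after an annotated start) were found for 30 of the 34 genes, 45 windows in all. None was found for HSF1, FKBP4, CRYAB and CCT6A. The 3-unit element was searched as GAANNTTCNNGAA and TTCNNGAANNTTC and the 2-unit element as GAANNTTC and TTCNNGAA, which covers both strands, and every 3-unit match contains a pair of 2-unit matches. The stretches lie upstream of a start and outside annotated exons, run 5′ to 3′ on the strand of the gene, and have the matches in capitals.
HSPA6: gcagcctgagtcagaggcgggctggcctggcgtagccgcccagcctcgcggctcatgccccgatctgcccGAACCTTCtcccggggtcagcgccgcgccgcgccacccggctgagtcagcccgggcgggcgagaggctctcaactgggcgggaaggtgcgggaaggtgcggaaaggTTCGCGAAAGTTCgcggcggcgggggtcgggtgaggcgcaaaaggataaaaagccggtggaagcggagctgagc
HSPA1A: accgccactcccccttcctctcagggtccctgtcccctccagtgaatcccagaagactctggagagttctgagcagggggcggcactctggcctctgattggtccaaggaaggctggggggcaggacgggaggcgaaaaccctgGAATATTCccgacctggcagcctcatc
HSPA1B: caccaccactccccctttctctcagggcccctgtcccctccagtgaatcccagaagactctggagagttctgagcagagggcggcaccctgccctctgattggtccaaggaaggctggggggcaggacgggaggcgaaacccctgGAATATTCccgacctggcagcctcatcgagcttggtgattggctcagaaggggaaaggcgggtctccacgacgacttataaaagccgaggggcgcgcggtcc
DNAJB1: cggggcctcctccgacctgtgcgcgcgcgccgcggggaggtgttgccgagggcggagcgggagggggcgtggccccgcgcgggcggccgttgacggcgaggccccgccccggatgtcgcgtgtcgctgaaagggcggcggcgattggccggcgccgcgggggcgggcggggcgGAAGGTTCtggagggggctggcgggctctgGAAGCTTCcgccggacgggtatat
DNAJA4: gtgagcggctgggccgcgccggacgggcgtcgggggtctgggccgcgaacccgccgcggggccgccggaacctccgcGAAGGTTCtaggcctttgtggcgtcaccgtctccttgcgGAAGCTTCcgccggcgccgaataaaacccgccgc
DNAJB6: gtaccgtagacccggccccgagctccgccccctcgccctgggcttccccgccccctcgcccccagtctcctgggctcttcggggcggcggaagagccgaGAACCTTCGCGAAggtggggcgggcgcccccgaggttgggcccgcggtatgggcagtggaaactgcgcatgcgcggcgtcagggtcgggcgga
HSP90AB1: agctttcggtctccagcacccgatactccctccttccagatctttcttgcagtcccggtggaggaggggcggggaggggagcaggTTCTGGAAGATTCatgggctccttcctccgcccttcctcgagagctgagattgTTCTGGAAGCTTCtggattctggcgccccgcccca
BAG3: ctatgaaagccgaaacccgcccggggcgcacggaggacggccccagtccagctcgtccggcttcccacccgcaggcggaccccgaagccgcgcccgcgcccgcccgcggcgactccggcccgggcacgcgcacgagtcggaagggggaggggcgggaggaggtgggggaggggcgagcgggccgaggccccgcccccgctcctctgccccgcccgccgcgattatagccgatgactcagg
HSPH1: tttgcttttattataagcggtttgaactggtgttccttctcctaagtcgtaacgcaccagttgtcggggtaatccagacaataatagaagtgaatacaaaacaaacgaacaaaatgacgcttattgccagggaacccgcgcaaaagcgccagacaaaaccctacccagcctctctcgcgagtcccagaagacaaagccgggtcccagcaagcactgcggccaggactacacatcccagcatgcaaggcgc
In GRCh38 these are HSPA6 at chr1:161524290-161524539 (plus strand), HSPA1A at chr6:31815293-31815463 (plus), HSPA1B at chr6:31827488-31827734 (plus), DNAJB1 at chr19:14518421-14518647 (minus), DNAJA4 at chr15:78264394-78264543 (plus), DNAJB6 at chr7:157336774-157336965 (plus), HSP90AB1 at chr6:44247693-44247865 (plus), BAG3 at chr10:119651130-119651369 (plus) and HSPH1 at chr13:31162389-31162638 (minus). HSPA6 carried the 3-unit letters TTCGCGAAAGTTC from position -74 relative to the start, and a 2-unit match at -180. HSPA1A and HSPA1B each carried GAATATTC, at -106 and -105. HSP90AB1 held the 3-unit letters TTCTGGAAGATTC and TTCTGGAAGCTTC, and DNAJB6 held GAACCTTCGCGAA. The windows of BAG3 and HSPH1 held neither form, which says only that these letters are not in those windows.

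The 3-unit letters were in the windows of 7 of the 30 genes (CHORDC1, DNAJA1, DNAJB6, HSP90AA1, HSP90AB1, HSPA6 and HSPA8), that is 23.3%, against 0.608% of all 27305 genes with a window. Of the 45 windows, 15.6% held them, against 0.49% of all 35116 windows. The CHORDC1 window held 3 overlapping matches, GAAAATTCGCGAA, TTCGCGAAGGTTC and GAAGGTTCCTGAA, between 60 and 38 bases before the start. The 2-unit letters were in 63.3% of the members with a window (19 of 30), against 16.2% of all genes. A match is a description of the sequence and not a measured binding site. In OCUG-1 at 10 µM the 19 members with the 2-unit letters had a median log2 fold change of 1.91 over vehicle, against 0.74 for the 11 members whose windows lacked them. The 11 were HSPA4, HSPH1, DNAJA2, BAG1, BAG3, AHSA1, HSF2, CCT3, CCT5, CCT7 and CCT8. The split thus partly follows family, and letters and family were not tested apart. For the 3-unit letters the medians were closer, 1.89 for the 7 members with them and 1.42 for the 23 without. In HuCCT1 at 10 µM the medians for the 2-unit letters were -0.06 both with and without them. Among other tested genes in OCUG-1 the 2-unit letters went with little difference. There 36% of 1743 genes with them were called higher at 10 µM, against 35.1% of 10827 genes without them. For the 3-unit letters these OCUG-1 shares were 42.9% of 56 genes and 35.2% of 12514 genes. In HuCCT1 at 10 µM the shares with and without the letters were 17.6 and 15.4% (2-unit) and 11.8 and 15.8% (3-unit). These are counts with no test.

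Gene counts summed to 14388855 to 24019011 per library in OCUG-1 and to 18238834 to 30693736 in HuCCT1. Levels are given as CPM, counts relative to the library total after scaling by the trimmed mean of M values (TMM). Of 8 biliary epithelial markers, 7 averaged over 10 CPM in OCUG-1 and 8 in HuCCT1, while 0 of 5 immune and 0 of 5 endothelial markers did in either line. The exception in OCUG-1 was CDH1, at 1.93 CPM against 151 in HuCCT1. KRT7 (11.4 against 5157 CPM) and EPCAM (29.8 against 390 CPM) were also far lower in OCUG-1. Only KRT8 averaged higher there, at 2271 against 1901 CPM. Of 5 fibroblast and 6 hepatocyte markers 1 each did, COL1A1 in both lines, FGB in OCUG-1 and SERPINA1 in HuCCT1. In HuCCT1 the third replicate stood apart in the vehicle, 1.25 µM and 10 µM arms: chi-square values for its gene counts set against those of replicates 1 and 2, divided by the degrees of freedom, were 27.3 to 50.6, while replicates 1 and 2 set against each other gave 5.45 to 11.7. The counts of called members that involve HuCCT1 are therefore also given without the third replicate of every HuCCT1 arm. Genes of the mitochondrial DNA took 5.95% ± 0.297 of counts in OCUG-1 at 10 µM and 5.43% ± 0.926 in the combination, against 11.1% ± 1.89 at 1.25 µM and 12.2% ± 1.26 with vehicle (SD, n = 3 each). Their part in the results was not tested beyond leaving those genes out, which left the count of called members in OCUG-1 at 10 µM at 33. All values are relative to the RNA of a library, and in bulk samples fewer cells of a type and less RNA per cell cannot be told apart.

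**Figure D1:**
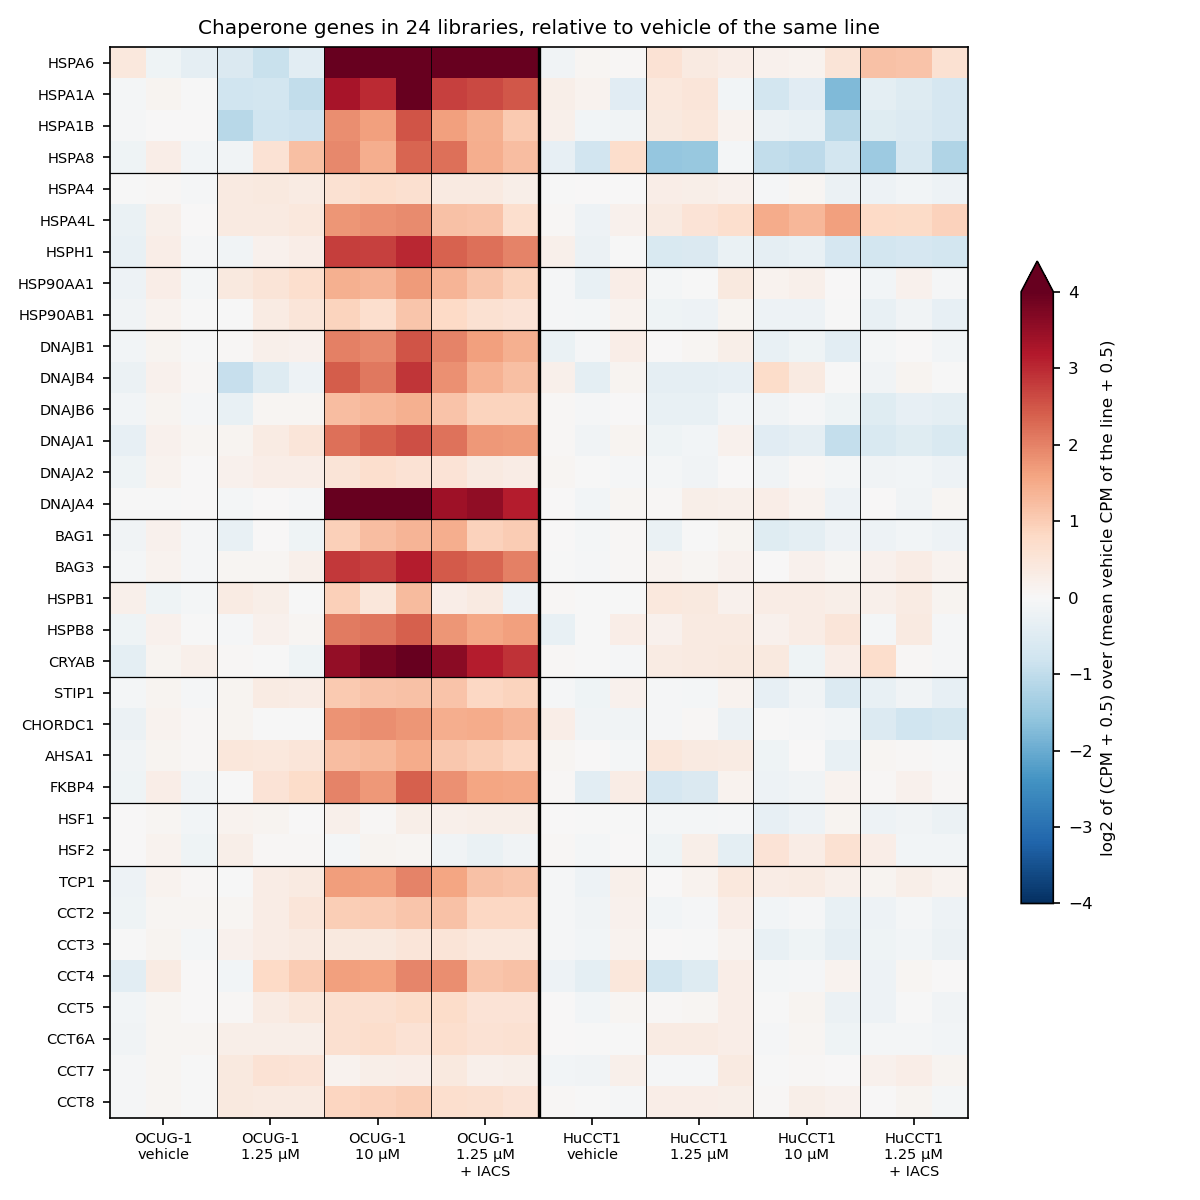
Level of each of the 34 genes (rows, grouped by family) in each of the 24 libraries (columns, 3 per arm, OCUG-1 left), as log2 of CPM + 0.5 over the mean vehicle level of the same line + 0.5, with the colour scale ending at 4. In OCUG-1 the 10 µM and combination libraries are red for nearly every gene, while the HuCCT1 libraries stay near 0 except for HSPA8, HSPA4L and a few other genes.

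In OCUG-1, 10 µM sorafenib raised nearly the whole chaperone set relative to vehicle. Of 34 members, 33 rose and 0 fell, by edgeR and by DESeq2 alike, the exception being HSF2 in edgeR (log2 fold change 0.11 ± 0.11, SE), where 63.1% of all 20511 tested genes were called, 32.4% higher and 30.7% lower (edgeR quasi-likelihood test, Benjamini-Hochberg adjusted p under 0.05). The members had a median log2 fold change of 1.70 against 0.00 over all tested genes. In 32 of 34 genes all 3 libraries at 10 µM lay above all 3 vehicle libraries, a count that was not made over all genes. Together the 34 genes took 1.77, 1.65 and 2.02% of all counts in the 3 libraries at 10 µM, against 0.594, 0.694 and 0.645% with vehicle. In HuCCT1 the same genes took 0.72% ± 0.0196 of counts at 10 µM and 0.779% ± 0.116 with vehicle (SD, n = 3 each).

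**Figure D2:**
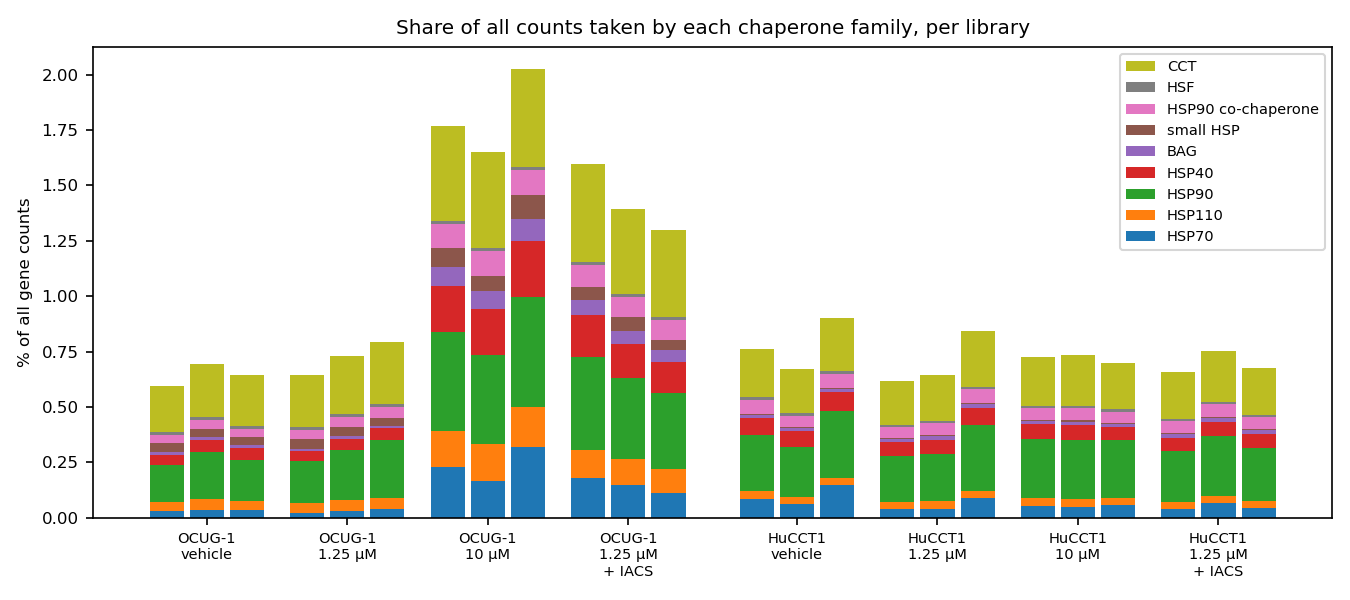
Share of all gene counts (%, linear axis from 0) taken by each chaperone family, 1 stacked bar per library, OCUG-1 on the left. OCUG-1 libraries average 1.81% ± 0.191 at 10 µM and 1.43% ± 0.151 in the combination (SD, n = 3 each), while all other libraries lie between 0.594 and 0.902%.

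Of all members HSPA6 had the largest rise. HSPA6, an HSP70 gene with a single exon (chromosome 1, 161524540 to 161526910) that is nearly silent in unstressed cells and whose printed stretch holds the 3-unit letters, had 644, 359 and 949.8 CPM in OCUG-1 at 10 µM, against 2.65, 1.61 and 1.37 CPM with vehicle. All 3 treated libraries were far above the vehicle libraries, with no overlap. Its log2 fold change was 8.51 ± 0.52 (adjusted p = 1.16e-07, edgeR). With IACS-010759 added it had 341, 323 and 166 CPM, against 1.09, 0.778 and 1.28 CPM at 1.25 µM sorafenib alone (8.20 ± 0.54). In HuCCT1 the gene stayed below 2 CPM in every library, at 0.677, 0.67 and 1.02 CPM at 10 µM and 0.454, 0.621 and 0.59 CPM with vehicle. Of its transcript, 15.2% of 150-base windows also occur in HSPA7, a close copy on the same chromosome, so some of its reads could be shared with that gene.

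HSPA1A and HSPA1B encode almost the same major stress-inducible HSP70 and lie 9.788 kb apart on chromosome 6 (HSPA1A at 31815464 to 31817946). Of 150-base windows of their transcripts, 67.1% for HSPA1A and 70.0% for HSPA1B occur in another gene, so the split between the pair is uncertain and their sum is given as well. In OCUG-1 HSPA1A had 289.9, 235 and 519 CPM at 10 µM and 27.5, 31.0 and 28.3 CPM with vehicle (log2 fold change 3.65 ± 0.23). HSPA1B had 587, 503 and 912 CPM at 10 µM and 156, 161 and 163 CPM with vehicle (2.13 ± 0.19). For both genes the groups did not overlap, and replicate 3 was the highest of the treated libraries. The sum of the pair rose by 2.50 ± 0.20 on the log2 scale at 10 µM and by 2.69 ± 0.20 when IACS-010759 was added to 1.25 µM sorafenib. At 1.25 µM sorafenib alone the pair went the other way: HSPA1A had 16.5, 17.2 and 14.5 CPM and HSPA1B 73.2, 91.0 and 88.9 CPM, both below the vehicle libraries, and the log2 fold change of the sum was -0.94 ± 0.19 (edgeR adjusted p = 0.00736). The call of HSPA1A alone ended without any single vehicle or 1.25 µM library (log2 fold change -0.80 to -0.92), while the call of HSPA1B held in each of those cases.

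HSPA8, the constitutive HSP70 of the cytosol, also rose. It had 467, 335 and 606 CPM in OCUG-1 at 10 µM, against 108, 145 and 112 CPM with vehicle (log2 fold change 2.02 ± 0.37). In the combination it had 559, 337 and 286 CPM, against 109, 181 and 281 CPM at 1.25 µM alone (1.16 ± 0.36), and here the groups nearly touched. That call ended without replicate 1 or 2 of the 1.25 µM arm or replicate 1 of the combination (log2 fold change 0.77 without the last). HuCCT1 libraries varied widely for this gene, with 717, 522 and 1443 CPM with vehicle alone. Per kilobase of transcript the ratio of HSPA1A to HSPA8 was 0.72 ± 0.118 in OCUG-1 at 10 µM and 0.239 ± 0.0237 with vehicle (SD, n = 3 each). It takes HSPA1A alone and so carries the uncertain split from HSPA1B, and no ratio was made for their sum.

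**Figure D3:**
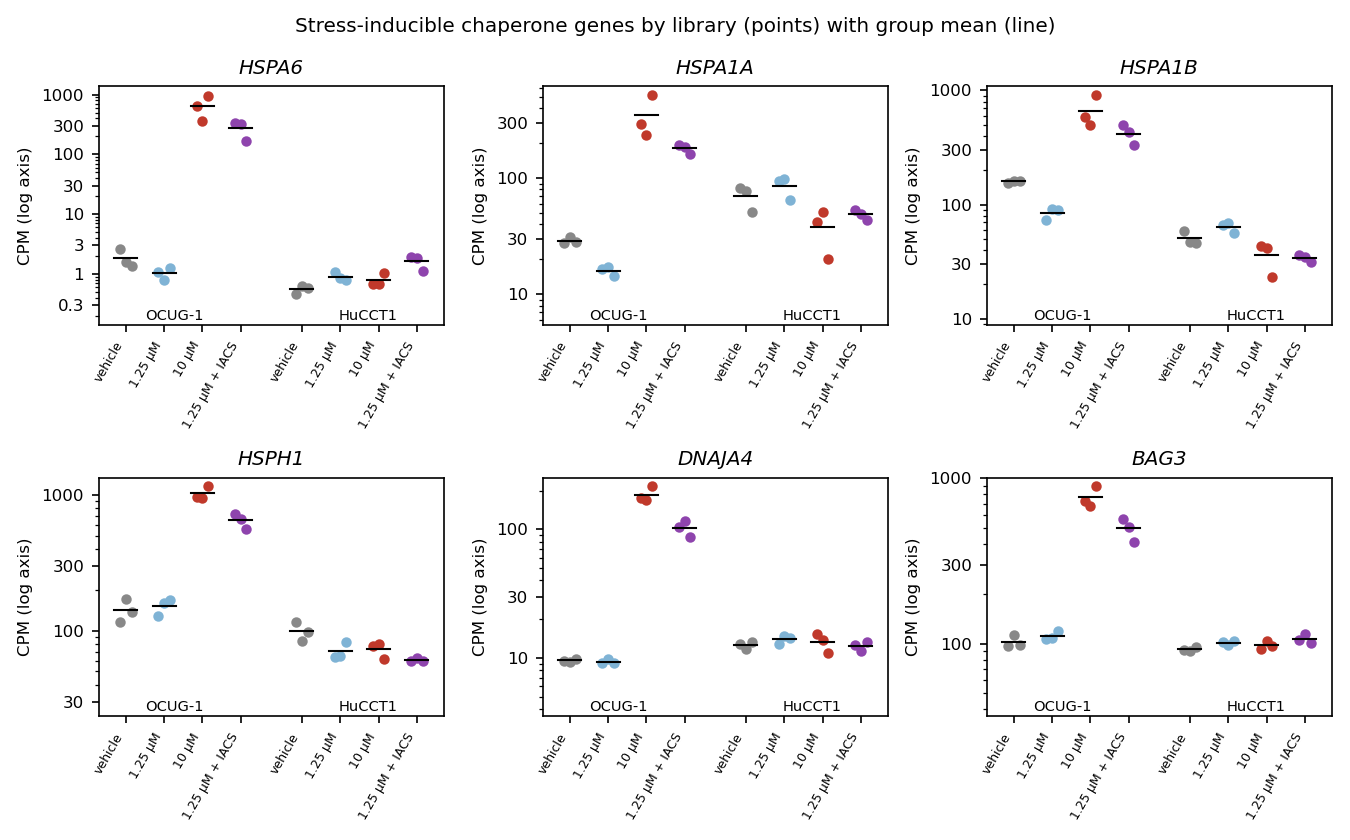
CPM of 6 stress-inducible chaperone genes on a log axis, 1 point per library and a line at the mean of each arm, OCUG-1 left and HuCCT1 right in each panel. In OCUG-1 the 10 µM and combination libraries stand apart from the vehicle and 1.25 µM libraries for every gene shown. In HuCCT1 no step of that size is seen, though HSPA6 lies above vehicle in the combination, at a low level.

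Among the HSP110 genes, which encode exchange factors for HSP70, HSPH1 rose most. HSPH1 had 963, 952 and 1158 CPM in OCUG-1 at 10 µM, against 116, 169.9 and 138 CPM with vehicle (log2 fold change 2.93 ± 0.15). The combination gave 724, 659 and 562 CPM, against 128, 159 and 169 CPM at 1.25 µM alone (2.21 ± 0.15). In HuCCT1 it was lower, not higher, at 10 µM, with 77.7, 79.7 and 62.2 CPM against 115, 84.3 and 97.3 CPM with vehicle (-0.44 ± 0.13). HSPA4L was the only member called higher at 10 µM in both lines. It had 99.9, 105 and 109.7 CPM in OCUG-1 at 10 µM against 24.1, 33.9 and 29.7 CPM with vehicle (1.91 ± 0.13), and 35.1, 31.5 and 39.1 CPM in HuCCT1 at 10 µM against 12.6, 10.5 and 13.8 CPM with vehicle (1.52 ± 0.13). In neither line did the groups overlap, and the difference between the lines, 0.33 with a 95% interval of -0.04 to 0.70, did not pass the test. HSPA4, per kilobase the most abundant of the 3 in vehicle cells of both lines, rose by 0.73 ± 0.09 on the log2 scale in OCUG-1 at 10 µM.

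The HSP90 pair consists of the stress-inducible HSP90AA1 and the constitutive HSP90AB1. HSP90AA1 had 1773, 1694 and 2138 CPM in OCUG-1 at 10 µM, against 567, 781 and 619.7 CPM with vehicle (log2 fold change 1.58 ± 0.14). HSP90AB1 averaged 2155 ± 319 CPM at 10 µM and 1154 ± 112 CPM with vehicle (SD, n = 3 each), a log2 fold change of 0.97 ± 0.14. Per kilobase, the ratio of HSP90AA1 to HSP90AB1 was 0.688 ± 0.0393 at 10 µM and 0.626 ± 0.0434 in the combination, against 0.539 ± 0.0446 at 1.25 µM and 0.448 ± 0.0329 with vehicle. In HuCCT1 the same ratio was 0.835 ± 0.119 at 10 µM and 0.826 ± 0.0418 in the combination, against 0.789 ± 0.0543 at 1.25 µM and 0.685 ± 0.0814 with vehicle (SD, n = 3 each). In both lines its mean was thus highest at 10 µM and lowest with vehicle, and HuCCT1 vehicle cells were near the OCUG-1 value at 10 µM. The HuCCT1 groups overlapped, however, with ratios of 0.889, 0.918 and 0.698 at 10 µM and 0.696, 0.599 and 0.761 with vehicle. In OCUG-1 HSP90AA1 also passed the test at 1.25 µM (0.50 ± 0.14, adjusted p = 0.0296, edgeR), a call that ended without vehicle replicate 1 (0.40) or 3, or without 1.25 µM replicate 2 or 3. In HuCCT1 HSP90AA1 was at 1403 ± 107 CPM at 10 µM and 1284 ± 258 CPM with vehicle, without a call.

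All 4 HSP90 co-chaperones rose in OCUG-1 at 10 µM. FKBP4 (FKBP52), an immunophilin of steroid receptor complexes, had 143, 121 and 191 CPM against 32.0, 43.6 and 32.5 CPM with vehicle (log2 fold change 2.14 ± 0.20). CHORDC1 (morgana), an HSP90-binding protein, had 126, 132 and 123 CPM against 30.8, 39.5 and 37.5 CPM with vehicle (1.89 ± 0.10), with little spread inside the treated group. AHSA1 (AHA1), which activates the HSP90 ATPase, had 352, 368 and 415 CPM against 134, 159.8 and 153 CPM with vehicle (1.42 ± 0.10). STIP1 (HOP), which bridges HSP70 and HSP90, had 321, 343 and 349 CPM against 145, 168 and 151 CPM with vehicle (1.20 ± 0.10). None of these groups overlapped. When IACS-010759 was added to 1.25 µM sorafenib, the 4 rises were 0.84 (STIP1), 1.54 (CHORDC1), 0.64 (AHSA1) and 1.33 (FKBP4) on the log2 scale.

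All 6 HSP40 genes rose in OCUG-1 at 10 µM, with log2 fold changes between 0.67 and 4.35. DNAJA4, a heat-inducible HSP40, had 174, 169 and 216 CPM, against 9.54, 9.37 and 9.75 CPM with vehicle (4.35 ± 0.14, edgeR adjusted p = 7.19e-14). Its vehicle and 1.25 µM libraries were almost level, with 9.07, 9.75 and 9.14 CPM at 1.25 µM, while the combination gave 105, 116 and 87.2 CPM. In HuCCT1 all 12 libraries lay between 10.9 and 15.3 CPM.

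DNAJB1, the main partner of inducible HSP70, had 744, 695 and 1044 CPM in OCUG-1 at 10 µM, against 172, 197 and 183 CPM with vehicle (log2 fold change 2.24 ± 0.15). DNAJB4, its close relative, had 178, 146 and 245 CPM against 27.8, 37.4 and 33.9 CPM with vehicle (2.59 ± 0.22). DNAJA1, a farnesylated partner of HSPA8, had 365, 418 and 479.7 CPM against 63.9, 90.2 and 84.9 CPM with vehicle (2.47 ± 0.16). For all 3 genes the groups did not overlap. DNAJB6, which suppresses aggregation of polyglutamine proteins, had 231, 245 and 265 CPM against 91.7, 107 and 95.7 CPM with vehicle (1.40 ± 0.11). DNAJA2 had the smallest rise of the 6, at 0.67 ± 0.10. In the combination against 1.25 µM alone the rises were 1.68 (DNAJB1), 2.14 (DNAJB4), 1.70 (DNAJA1), 1.13 (DNAJB6) and 0.29 (DNAJA2), the last of which lost its call without replicate 1 of the combination (0.15), or replicate 1 (0.26) or 2 (0.30) of the 1.25 µM arm.

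The BAG proteins promote nucleotide exchange on HSP70, and BAG3 also hands clients to autophagy. BAG3, whose printed stretch holds no match, had 724, 683 and 899.8 CPM in OCUG-1 at 10 µM, against 96.0, 112 and 98.0 CPM with vehicle (log2 fold change 2.98 ± 0.13). The combination gave 567, 509.5 and 414 CPM, against 107, 108 and 118 CPM at 1.25 µM alone (2.28 ± 0.13). In HuCCT1 its 12 libraries stayed between 89.7 and 114 CPM. BAG1, which links HSP70 to the proteasome, had 31.0, 37.8 and 41.0 CPM in OCUG-1 at 10 µM and 14.2, 18.0 and 15.2 CPM with vehicle (1.28 ± 0.15). It was 1 of the few genes as high in the combination, at 44.3, 30.4 and 32.7 CPM, as at 10 µM.

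HSPB8, the small heat-shock protein that works with BAG3, had 139, 148 and 173 CPM in OCUG-1 at 10 µM, against 28.9, 37.5 and 32.3 CPM with vehicle (log2 fold change 2.29 ± 0.12). Its combination libraries held 114, 97.8 and 104 CPM, against 31.9, 37.3 and 34.6 CPM at 1.25 µM alone (1.72 ± 0.12). Every HuCCT1 library was below 3 CPM. HSPB1 (HSP27), per kilobase the most abundant of the 3 small heat-shock genes in both lines, had 631, 443 and 785 CPM in OCUG-1 at 10 µM and 374, 289 and 309 CPM with vehicle (1.01 ± 0.19). It was 1 of the 4 members without a call when IACS-010759 was added, at 388, 412 and 278 CPM against 409, 379.7 and 322 CPM at 1.25 µM alone (0.07 ± 0.19, 95% interval -0.29 to 0.44). The CPM are scaled over 24 libraries and the fold change over the 12 of the line, and here they differ in direction. CRYAB (alpha-B-crystallin) was near the limit of detection without drug: it had 216, 238 and 247 counts at 10 µM, against 1, 5 and 6 counts with vehicle, and at 10 µM its highest library had 12.8 CPM. Its fitted log2 fold change of 5.48 ± 0.37 rests on few vehicle counts. In HuCCT1 CRYAB had 0 to 12 counts per library and was left out of the test by the filter on low counts.

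The heat-shock factors themselves changed little. HSF1, the main regulator of the heat-shock response, had 107, 96.3 and 108 CPM in OCUG-1 at 10 µM, against 94.5, 98.3 and 85.1 CPM with vehicle (log2 fold change 0.24 ± 0.09, edgeR adjusted p = 0.0357). The groups overlapped, and the call ended without vehicle replicate 1 (0.24) or 3 (0.17), without 10 µM replicate 1 or 3, and in the fit of 24 libraries (0.16). HSF2 had 30.5 ± 2.16 CPM at 10 µM and 29.8 ± 3.08 CPM with vehicle (SD, n = 3 each). The RNA level of a factor says nothing of its binding to DNA, which was not measured.

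All 8 subunits of the CCT ring rose in OCUG-1 at 10 µM, but by unequal amounts. TCP1 (CCT1), the alpha subunit, had 593, 578 and 724 CPM, against 159, 205 and 189 CPM with vehicle (log2 fold change 1.85 ± 0.14). CCT4 had 267, 261 and 334 CPM against 63.0, 106 and 86.5 CPM with vehicle (1.82 ± 0.30), and CCT2 had 229.6, 233 and 253 CPM against 103, 122 and 122 CPM with vehicle (1.11 ± 0.12). For these 3 subunits no treated library overlapped a vehicle library. The other rises were 1.00 for CCT8, 0.74 for CCT5, 0.71 for CCT6A, 0.49 for CCT3 and 0.28 for CCT7 on the log2 scale. The CCT7 call ended without vehicle replicate 1 (0.25) or 3, or without 10 µM replicate 3. In the ring each subunit is present in equal number, and the RNA levels did not stay in proportion. TCP1 and CCT7 had the largest and the smallest rise, so a wider ratio of this pair at 10 µM follows from the choice. Per kilobase, the ratio of TCP1 to CCT7 was 1.84 ± 0.187 at 10 µM and 1.27 ± 0.135 in the combination, against 0.513 ± 0.0416 at 1.25 µM and 0.623 ± 0.0563 with vehicle. In HuCCT1 that ratio was 0.532 ± 0.0261 at 10 µM and 0.442 ± 0.0175 with vehicle (SD, n = 3 each).

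**Figure D4:**
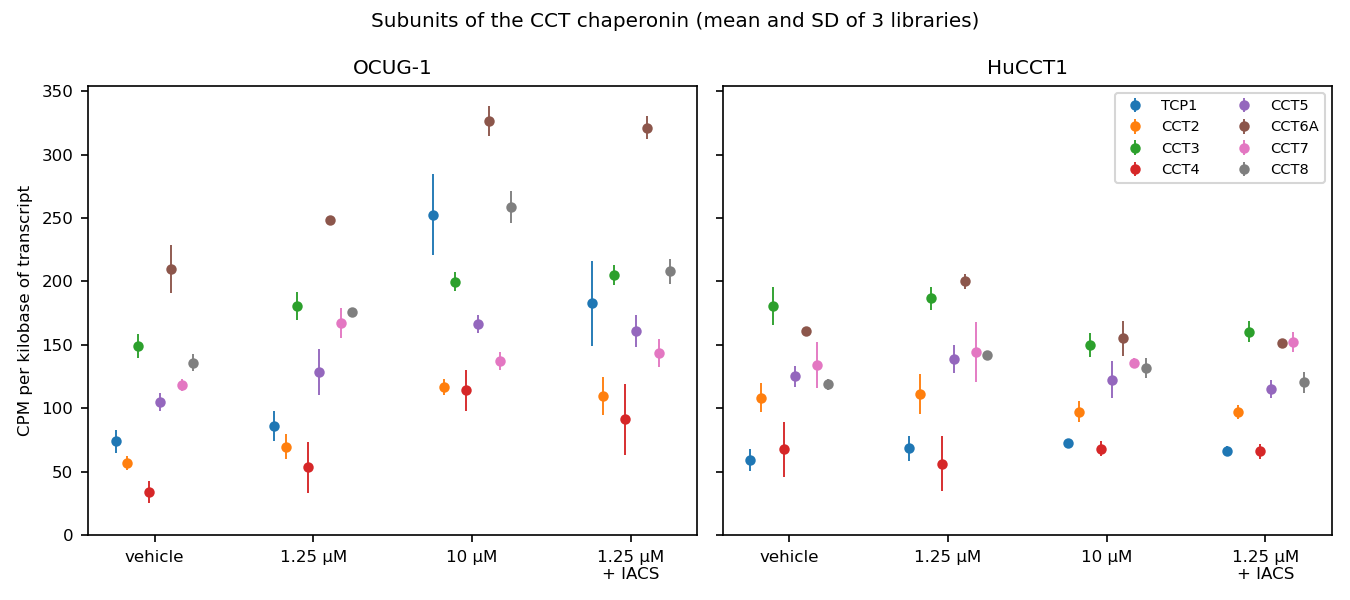
CPM per kilobase of transcript (mean and SD of 3 libraries, linear axis from 0) of the 8 CCT subunits in the 4 arms, OCUG-1 on the left. In OCUG-1 TCP1 lies at 253 ± 32.2 at 10 µM and at 73.8 ± 9.28 with vehicle, passing CCT3, CCT5 and CCT7, while in HuCCT1 TCP1 and CCT4 are the lowest subunits in every arm.

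Per kilobase, CCT6A was the most abundant subunit in OCUG-1 in every arm, at 327 ± 11.7 CPM at 10 µM and 209.8 ± 18.6 CPM with vehicle. TCP1 was among the 3 lowest with vehicle at 73.8 ± 9.28 CPM and reached 253 ± 32.2 CPM at 10 µM, where it did not differ from CCT8 at 259 ± 12.7 CPM beyond the spread of 3 libraries. When IACS-010759 was added to 1.25 µM sorafenib, 7 of the 8 subunits rose, from 0.30 for CCT3 to 1.20 for TCP1. CCT7 was the exception, at -0.10 ± 0.09, with all 3 combination libraries at 299.6, 261 and 266 CPM against 294, 338 and 329 CPM at 1.25 µM alone. Its lowest 1.25 µM library was close to its highest combination library. The calls of CCT4 (0.55) and CCT3 (0.21) ended without replicate 1 of the combination.

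The low dose of sorafenib changed few of these genes in OCUG-1. Against vehicle, 5 members rose and 2 fell of 34, where 10.5% of all tested genes were called, 5.92% higher and 4.61% lower. The rises were HSP90AA1, AHSA1 (0.43 ± 0.10), CCT7 (0.47 ± 0.10), CCT8 (0.34 ± 0.09) and HSPA4 (0.33 ± 0.09), and the falls were HSPA1A and HSPA1B. With scaling to library size alone 3 rose and 2 fell. The AHSA1 call ended without vehicle replicate 1 (0.36) or 1.25 µM replicate 2, and the calls of HSPA4 (0.31) and CCT8 (0.33) ended without vehicle replicate 3 and also without vehicle replicate 1 or 1.25 µM replicate 2 or 3. Leaving out 1 library at a time gave 2 to 9 called members, and DESeq2 called 7 higher and 2 lower. Shares over all genes with these alternatives are not given here.

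Adding IACS-010759 to the low dose raised most of the set in OCUG-1. Against 1.25 µM sorafenib alone, 30 of 34 members rose and 0 fell, where 58.1% of all tested genes were called, 31.4% higher and 26.7% lower, and the members' median log2 fold change was 1.01 against 0.06 over all genes. The 4 without a call were HSPA4 (0.08 ± 0.09), HSPB1, HSF2 (-0.18 ± 0.11) and CCT7. The HSP90AB1 call ended without replicate 1 of the combination (0.35), and the HSF1 call (0.24) without any library of the combination or replicate 2 or 3 of the 1.25 µM arm (0.20 without the third). Without the mitochondrial genes 28 rose, and leaving out 1 library at a time gave 24 to 29. Against vehicle the combination raised 32 members and lowered 0, where 59.5% of genes were called, 31.5% higher and 28.1% lower, the exceptions being HSPB1 and HSF2. The 34 genes took 1.43% ± 0.151 of counts in the combination, against 0.723% ± 0.0751 at 1.25 µM alone (SD, n = 3 each).

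Set beside each other, the 10 µM arm was mostly above the combination, a pair of arms that differ in both agents and were not tested. The mean was higher at 10 µM for 31 of 34 members, and for 19 all 3 libraries at 10 µM lay above all 3 of the combination. Neither count was made over all genes. HSPA4L had 105 ± 4.92 CPM at 10 µM and 59.3 ± 10.6 CPM in the combination, and DNAJB4 had 189.5 ± 50.7 and 94.2 ± 22.6 CPM (SD, n = 3 each). At 10 µM against 1.25 µM sorafenib, 31 members rose and 0 fell, where 60.5% of genes were called, 31.6% higher and 29% lower. The CCT3 call in that comparison (0.24) ended without any 10 µM library, or without 1.25 µM replicate 1 or 2. Members also often ranked alike between replicates of 1 arm: replicate 3 of the 10 µM arm was the highest for 29 of 34 genes, replicate 1 of the combination was the highest for 30, and replicate 2 of the vehicle arm was the highest for 28 of 33. In the 1.25 µM arm replicate 3 was the highest for 16 of 33. Whether other genes ranked the same way was not tested.

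HuCCT1 did not show this rise. At 10 µM sorafenib against vehicle 2 members rose and 4 fell of 33 tested, where 24.2% of all 19576 tested genes were called, 13% higher and 11.2% lower, and the members' median log2 fold change was -0.06. Beside HSPA4L, the rise was HSF2 (0.50 ± 0.17), with 15.5, 13.1 and 16.4 CPM at 10 µM and 11.1, 10.0 and 10.6 CPM with vehicle. The falls were HSPA1A (-0.89 ± 0.29), DNAJA1 (-0.57 ± 0.14), HSPH1 and BAG1 (-0.35 ± 0.11). HSPA1A had 42.0, 51.6 and 20.3 CPM at 10 µM, against 82.7, 77.0 and 51.4 CPM with vehicle, and its call ended without 10 µM replicate 1 or 3 (-0.59 without the third) or vehicle replicate 1 or 2. DNAJA1 had 229, 242 and 159 CPM at 10 µM, against 319.8, 281 and 334 CPM with vehicle, and kept its call without any single library, as did HSPA4L. The calls of HSF2 (0.54), HSPH1 (-0.31) and BAG1 (-0.34) ended without vehicle replicate 1. HSPH1 also lost it without 10 µM replicate 3, BAG1 without vehicle replicate 3 or 10 µM replicate 1 or 2, and HSF2 without every library tried but 10 µM replicate 2. Without the third replicate of every arm 6 rose and 6 fell, where 3429 of 20247 genes were called higher and 2984 lower. Calls over all genes thus also increased, from 2554 and 2193. With scaling to library size alone 3 rose and 2 fell, where 2745 of 19576 genes were called higher and 1828 lower.

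In the other HuCCT1 comparisons 5 to 13 of 33 members were called, and the 6 called in the combination against 1.25 µM alone were all lower. At 1.25 µM against vehicle 4 rose and 1 fell, where 18.5% of genes were called, 9.98% higher and 8.5% lower. The rises were HSPA4L (0.55), AHSA1 (0.38), HSPB1 (0.34) and CCT6A (0.32), and the fall was HSPH1 (-0.48). HSPA4L kept its call without any single library. The calls of AHSA1 (0.35), HSPB1 (0.30), CCT6A (0.30) and HSPH1 (-0.42) ended without 1.25 µM replicate 1, and also without its replicate 2 and at least 1 vehicle library. With scaling to library size alone 0 rose and 2 fell, where 1126 of 19576 genes were called higher and 3097 lower. Without the third replicates 8 rose and 4 fell, where 2976 of 20247 genes were called higher and 2980 lower. When IACS-010759 was added, 0 rose and 6 fell, where 11.6% of genes were called, 5.06% higher and 6.57% lower. At an unadjusted p under 0.05, 13 of the 33 members passed in either direction. DESeq2 called 0 members higher and 8 lower, where it called 1300 of 19576 genes higher and 1647 lower. The 6 falls were HSPA1B (-0.91), CHORDC1 (-0.61), DNAJA1 (-0.55), CCT6A (-0.41), HSPA4 (-0.40) and AHSA1 (-0.33), of which HSPA1B and CHORDC1 kept their calls without any single library. DNAJA1 (-0.52), CCT6A (-0.40), HSPA4 (-0.38) and AHSA1 (-0.34) lost theirs without combination replicate 1 or 3, and the last 3 also without 1.25 µM replicate 2. With library-size scaling 2 rose and 2 fell, where 2601 of 19576 genes were called higher and 555 lower. Without the third replicates 4 rose and 7 fell, where 2970 of 20247 genes were called higher and 2883 lower.

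CHORDC1 had 57.5, 48.2 and 51.1 CPM in the HuCCT1 combination, against 81.4, 86.2 and 71.0 CPM at 1.25 µM alone, with no overlap. Against vehicle the HuCCT1 combination raised 2 members and lowered 5, where 20.1% of genes were called, 9.94% higher and 10.1% lower. The rises were HSPA4L (0.86) and HSPA6. HSPA6 had 1.89, 1.85 and 1.11 CPM in the HuCCT1 combination, against 0.454, 0.621 and 0.59 CPM with vehicle (1.56 ± 0.33), a low level beside that of the OCUG-1 combination. The falls were HSPH1 (-0.71), CHORDC1 (-0.68), DNAJA1 (-0.57), HSPA1B (-0.57) and DNAJB6 (-0.40). Without combination replicate 1 the calls of HSPA1B (-0.60) and DNAJB6 (-0.35) ended, that of HSPA1B also without combination replicate 2 or 3 or vehicle replicate 1. Without the third replicate of every arm 7 rose and 6 fell, where 2822 of 20247 genes were called higher and 2694 lower. Between the doses, 10 µM against 1.25 µM, 3 rose (HSPA4L 0.96, DNAJB4 0.78 and HSF2 0.58) and 10 fell, where 28.2% of genes were called, 14.4% higher and 13.7% lower. With library-size scaling 3 rose and 3 fell in that comparison, where 4409 of 19576 genes were called higher and 1280 lower. Without the third replicates 6 rose and 9 fell in it, a count given without its share over all genes. HSPA4L, DNAJB4, HSPA1A, HSPA1B, DNAJA1, AHSA1 and CCT6A kept their calls there without any single library, while the calls of HSF2 (0.56), HSPA4 (-0.30), DNAJB1 (-0.41), BAG1 (-0.24), STIP1 (-0.34) and CCT3 (-0.31) ended without 10 µM replicate 1, among other libraries.

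**Figure D5:**
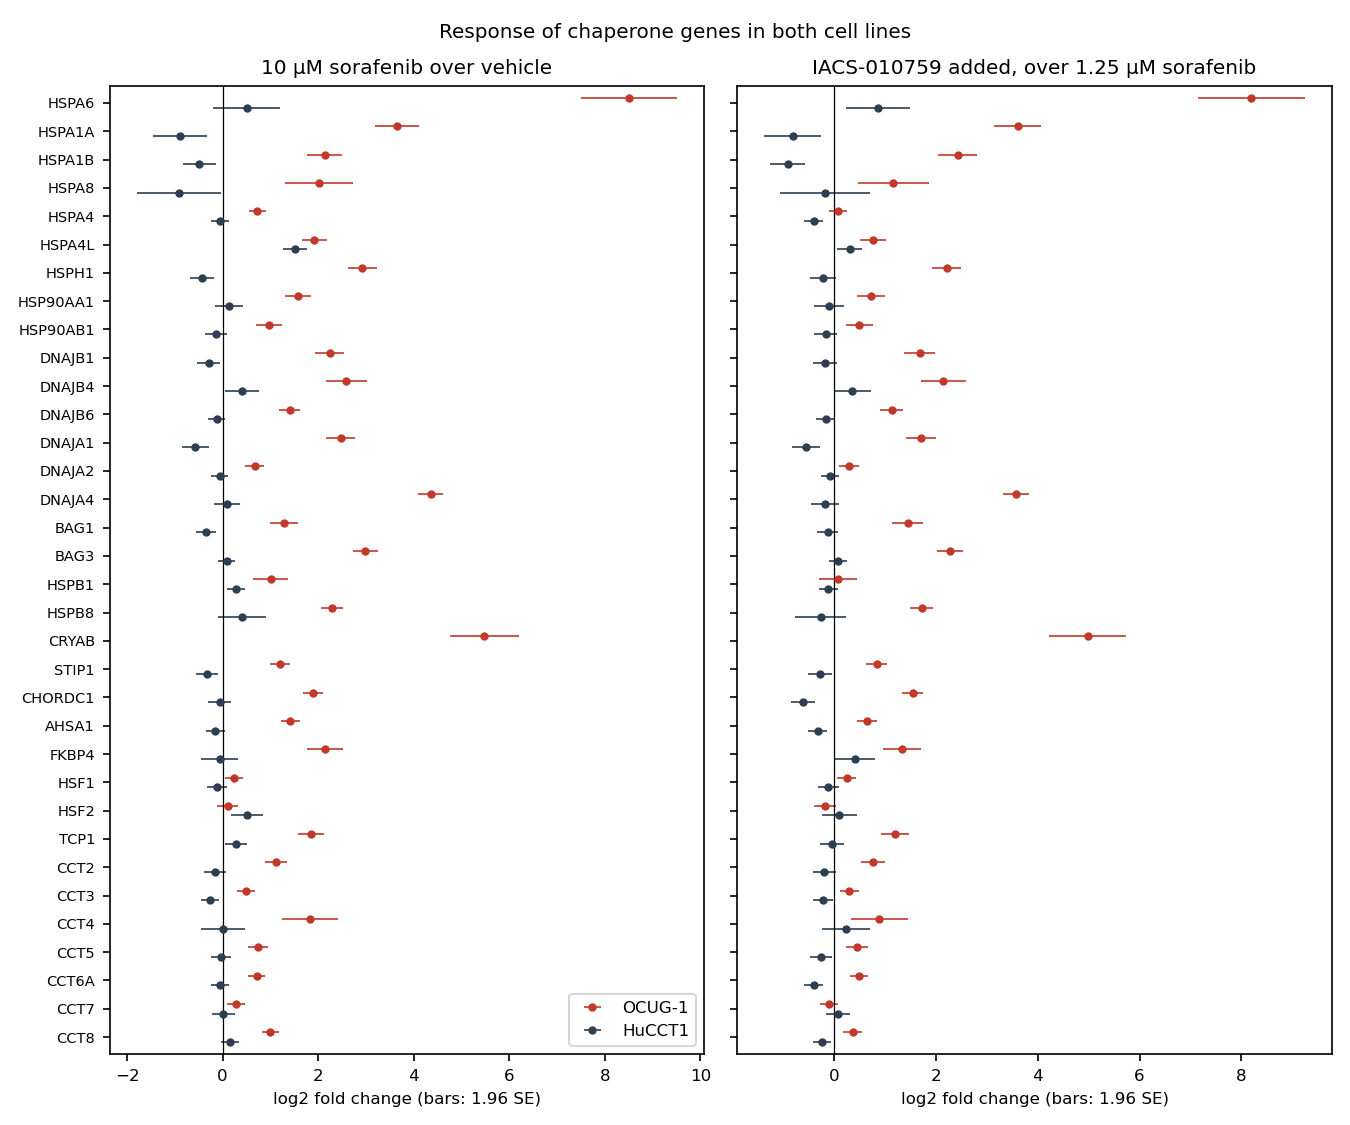
Log2 fold changes of the members (points, with bars for the 95% interval from the SE) for 10 µM sorafenib over vehicle (left) and for IACS-010759 added to 1.25 µM sorafenib (right), OCUG-1 in red above HuCCT1 in dark blue for each gene. CRYAB passed the filter on low counts in the OCUG-1 fit but not in the HuCCT1 fit. OCUG-1 points lie right of 0 for all members on the left and for 32 of 34 on the right, while HuCCT1 points scatter around 0.

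The responses of the lines were then compared directly, as the OCUG-1 log2 fold change minus that of HuCCT1 in 1 fit of 24 libraries. At 10 µM against vehicle 30 of 34 members responded more strongly in OCUG-1 and 0 less, where 43.8% of all 22944 tested genes were called, 20.7% higher and 23.1% lower. The differences included HSPA6 (7.94 ± 0.97), HSPA1A (4.47 ± 0.43), DNAJA4 (4.19 ± 0.18) and HSPH1 (3.29 ± 0.21). The 4 without a call were HSPA4L, HSF1 (0.29 ± 0.14), HSF2 (-0.47 ± 0.20) and CCT7 (0.20 ± 0.16). HSPB1 (0.46) lost its call without the third OCUG-1 library at 10 µM, and CRYAB (3.96) without the first HuCCT1 vehicle library. Without the third replicate of every HuCCT1 arm 30 members were again called higher, and calls over all genes in that setting are not given here.

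When IACS-010759 was added to 1.25 µM sorafenib, 25 members responded more strongly in OCUG-1 and 0 less, where 38.8% of genes were called, 18.6% higher and 20.2% lower. HSPA6 differed by 7.21 ± 0.84, HSPA1A by 4.30 ± 0.43, DNAJA4 by 3.64 ± 0.18 and HSPA1B by 3.22 ± 0.29. The calls of HSPA4 (0.31), HSP90AA1 (0.55), HSP90AB1 (0.42) and CCT3 (0.34) ended without replicate 1 of the OCUG-1 combination, those of all but HSP90AA1 also without a HuCCT1 library. Without the third replicate of every HuCCT1 arm 22 were called higher and 1 lower, with no share over all genes beside it. At 1.25 µM alone 1 member differed, where 9.65% of genes were called, 4.96% higher and 4.69% lower: HSPA1B, with -1.26 ± 0.29, was lower against vehicle in OCUG-1 (-0.95) and not called in HuCCT1 (0.34). Without the third HuCCT1 replicates that count was 4, again with no share over all genes.

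Without drug the lines differed in many members, as they did in most genes. In vehicle cells 10 of 34 members were higher and 16 lower in OCUG-1 than in HuCCT1, a share near the 68.3% of all genes that were called, 35.6% higher and 32.7% lower. With library-size scaling 14 were higher and 11 lower, and without the third HuCCT1 replicates 9 were higher and 15 lower. Shares over all genes in these settings are not given here. Of the 3 small heat-shock genes 2 were higher in OCUG-1 and CRYAB, with few counts in both lines, was not called (1.84 ± 0.89). HSPB8 had 28.9, 37.5 and 32.3 CPM in OCUG-1, against 1.33, 1.69 and 2.18 CPM in HuCCT1 (log2 difference 4.25 ± 0.17), and HSPB1 had 374, 289 and 309 CPM, against 44.6, 42.1 and 42.3 CPM in HuCCT1 (2.91 ± 0.16). Lower in OCUG-1 were HSPA8 (-2.88 ± 0.48), BAG1 (-2.18 ± 0.14) and DNAJA1 (-1.97 ± 0.16). DNAJA1 had 63.9, 90.2 and 84.9 CPM in OCUG-1 and 319.8, 281 and 334 CPM in HuCCT1, so that the OCUG-1 level at 10 µM given above lay above that of HuCCT1 vehicle cells. BAG1 had 14.2, 18.0 and 15.2 CPM in OCUG-1 and 72.3, 68.3 and 73.6 CPM in HuCCT1 and remained below HuCCT1 vehicle cells also at 10 µM. HSPA1A was lower (-1.28) and HSPA1B higher (1.66) in OCUG-1, but their sum was higher by 0.64 ± 0.24, so the direction of HSPA1A alone depends on how reads were split between the pair.

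Genes that work beside the members were read from 5 further lists, which were chosen with earlier results of these data known. In OCUG-1 at 10 µM against vehicle, 11 of 15 tested HSF1 targets and regulators outside the members rose and 3 fell, with a median log2 fold change of 1.41, where 32.4% of all tested genes were called higher and 30.7% lower. ZFAND2A (AIRAP), a proteasome-associated protein induced by arsenite, had 197, 249 and 259.6 CPM at 10 µM, against 18.0, 14.6 and 19.6 CPM with vehicle (3.83 ± 0.14). SERPINH1 (HSP47), the collagen chaperone of the endoplasmic reticulum, had 508, 578 and 750.3 CPM against 68.3, 75.9 and 71.6 CPM with vehicle (3.16 ± 0.17). RGS2, a regulator of G-protein signalling, rose by 3.30 ± 0.16 and CACYBP, a calcyclin-binding protein, by 1.98 ± 0.12 on the log2 scale. In HuCCT1 the same list had 3 rises and 1 fall of 14 tested, where 13% of all genes were called higher and 11.2% lower, the fall being SERPINH1 at 58.4, 59.2 and 61.9 CPM at 10 µM, against 96.8, 92.3 and 95.9 CPM with vehicle (-0.67 ± 0.08).

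Of the other HSP70 system genes, 12 of 20 rose and 1 fell in OCUG-1 at 10 µM (median 0.65, against the same 32.4% higher and 30.7% lower of all genes), among them DNAJB2 (1.69 ± 0.13) and the ribosome-associated DNAJC2 (1.55 ± 0.10). Of other HSP90 co-chaperones 7 of 13 rose and 3 fell (median 0.28), with a fall for FKBP5 (-1.02 ± 0.17) where its paralog FKBP4 rose. Of prefoldin subunits and CCT helpers 7 of 10 rose and 0 fell (median 0.57), including PFDN2 (1.36 ± 0.17) and TXNDC9 (1.64 ± 0.19). Of the tubulin and actin genes, whose products are the main clients of CCT, 2 of 13 rose and 5 fell (median 0.03). TUBA1A had 49.4, 40.9 and 56.1 CPM at 10 µM, against 131, 161 and 147 CPM with vehicle (-1.52 ± 0.13), and TUBB2A rose (1.07 ± 0.14). When IACS-010759 was added to 1.25 µM sorafenib in OCUG-1, 31.4% of all genes were called higher and 26.7% lower. The rises and falls were 8 and 2 of 15 HSF1 targets, 11 and 4 of 20 HSP70 system genes, 5 and 4 of 13 HSP90 co-chaperones, 6 and 3 of 10 prefoldin and CCT helper genes, and 2 and 7 of 13 tubulin and actin genes, with TUBA1A at -2.24 ± 0.13. The HSP90 co-chaperone counts were close to the shares over all genes. In HuCCT1 at 10 µM the rises and falls were 2 and 3 of 20 HSP70 system genes, 2 and 0 of 13 HSP90 co-chaperones, 2 and 1 of 10 prefoldin and CCT helper genes, and 3 and 1 of 13 tubulin and actin genes, where 13% of all genes were called higher and 11.2% lower. None of the HuCCT1 list counts was recomputed without the third replicates.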

How the data were processed

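The deposited table holds whole-number counts per gene for 24 libraries, which the authors made with fastp 1.3.2, HISAT2 2.2.2 on GRCh38 and featureCounts (Subread 2.1.1), per the submitters' processing notes, which also name R 4.4.1, DESeq2 1.42.1 and MultiQC 1.33. The sources used here give no annotation release, strand setting or multi-mapping rule. Transcript lengths, gene positions and shared 150-base windows came from GENCODE release 29 (GRCh38). For 4 OCUG-1 libraries, which the labels do not name, sequencing runs were added together.

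Counts were tested with edgeR 4.0.16 (R 4.3.3) quasi-likelihood fits after its expression filter (minimum count 10) and TMM scaling, 1 fit of 12 libraries per line and 1 of 24 for differences between lines, with Benjamini-Hochberg adjustment over all tested genes and a threshold of 0.05. In each line each treated arm was set against vehicle, and 10 µM and the combination against 1.25 µM, so these comparisons share libraries. The fits were also run on simulated counts in which few genes changed and all genes had the same dispersion. That setting is unlike these data, so the run does not show how reliable the calls here are. CPM are TMM-scaled over all 24 libraries. Fold changes within a line use the scaling of its own 12 libraries, so small ones can differ in sign from the CPM. Replicates are labelled as independent biological replicates, and the main fits used no block for the replicate number. Libraries of the same number had a median correlation of 0.05 in HuCCT1 and -0.03 in OCUG-1. In HuCCT1 these correlations ran from -0.13 to 0.40, and replicate 3 stood apart in the vehicle, 1.25 µM and 10 µM arms. The median therefore does not settle whether the numbers pair the HuCCT1 libraries. Counts with the replicate number as a block are given below. Alternatives were DESeq2 1.42.0, other scalings, filters and fits, each library left out, and HSPA1A and HSPA1B summed. Members and lists were chosen with earlier results of these data known. Named were members that changed at least 2-fold with at least 10 CPM, HSF1, and members shown because the comparison turned on them. HSPB11, listed at first, was not matched.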

Additional observations from a re-analysis of the deposited data

Results flagged for a closer look

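The members below responded differently in the lines, by a test of the difference itself (OCUG-1 log2 fold change minus that of HuCCT1, edgeR with Benjamini-Hochberg adjustment over all genes). At 10 µM sorafenib against vehicle 30 members differed, and the named differences were 7.94 for HSPA6, 4.47 for HSPA1A, 4.19 for DNAJA4 and 3.29 for HSPH1. For IACS-010759 added to 1.25 µM sorafenib 25 members differed, with 7.21 for HSPA6, 4.30 for HSPA1A, 3.64 for DNAJA4 and 3.22 for HSPA1B. At 1.25 µM sorafenib against vehicle 1 member differed, HSPA1B, at -1.26. All of these are larger in OCUG-1 except the last, which is lower in OCUG-1. With HSPA1A and HSPA1B summed the difference of the pair was 3.14 ± 0.35 at 10 µM, 3.43 ± 0.35 for added IACS-010759 and -1.22 ± 0.34 at 1.25 µM (SE).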

How the results depend on the processing

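In OCUG-1 the counts of called members at 10 µM against vehicle stayed at 31 to 33 and those of added IACS-010759 at 24 to 29 when single libraries were left out, against 33 and 30 with all. The corresponding ranges were 2 to 9 at 1.25 µM, 31 to 32 for the combination against vehicle and 30 to 31 for 10 µM against 1.25 µM. In HuCCT1, leaving out single libraries or the third replicate of every arm (the second chosen after seeing the data) gave 1 to 12 at 1.25 µM, 3 to 12 at 10 µM, 2 to 11 for added IACS-010759, 5 to 13 for the combination against vehicle and 7 to 15 between doses. Without the third replicates the HuCCT1 calls over all genes rose as well, from 4747 to 6413 at 10 µM and from 2276 to 5853 for added IACS-010759. The line differences ranged over 1 to 5, 29 to 32 and 21 to 26 at 1.25 µM, at 10 µM and for added IACS-010759, and the vehicle cells of the lines over 23 to 26; the first was 4 without the third HuCCT1 replicates. In HuCCT1 at 1.25 µM 2 members were called with library-size scaling and 3 with no filter on low counts, against 5. At 10 µM DESeq2 called 10 against 6, and between doses library-size scaling called 6 and a fit of only the groups compared 8, against 13. The line difference at 1.25 µM had 2 calls with no filter, 2 with the replicate block, 2 with only the groups compared and 3 with DESeq2, against 1. Library-size scaling moved the median log2 fold change of all genes in OCUG-1 to -0.13 at 1.25 µM and 0.21 for added IACS-010759, and in HuCCT1 to -0.14 and 0.19. With the replicate number as a block OCUG-1 had 32 called members at 10 µM and 29 for added IACS-010759, and HuCCT1 had 8 and 7. Over all genes the block took the HuCCT1 calls from 4747 to 5201 and from 2276 to 2838. Of the libraries, 6 of 12 in HuCCT1 and 3 of 12 in OCUG-1 correlated best with one of their own number. HSPA1A in vehicle cells turned from -1.28 to 0.64 when summed with HSPA1B, and DNAJA4 in HuCCT1 at 10 µM, which was not called, was -0.021 without 10 µM replicate 1. The causes were not tested. Where no count over all genes is given for a setting, a shift in the members cannot be told from a shift in all genes. Depth limits CRYAB in both lines and HSPA6 in HuCCT1, where counts per library are few.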
